A study of Mus musculus with 9 samples.

Results

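The comparison described here set sorted sensory neurons of the Rx3+/+;PV:tdT group against those of the TrkC:GFP group across all genes of the deposited comparison of these groups. Genes were kept where the deposited RPKM (reads scaled to gene length and to library size) was 1 or more in either group, which held for 12691 of 23038 genes, or 55.1%, and 6 of the 9 samples of the series enter it. The series profiled neurons sorted by fluorescence from neonatal mouse dorsal root ganglia, with 3 RNA-seq libraries for each of 3 reporter populations. The Rx3+/+;PV:tdT neurons, called the wild-type PV group below, came from animals with wild-type Runx3 (Rx3), a PV:Cre driver active where parvalbumin is made, and a Cre-dependent tdTomato reporter. The reporter is named Ai14 in the sample labels and Ai9 in the series' text. The TrkC:GFP neurons, called the TrkC group, carried no Cre in the labels but a bacterial artificial chromosome (BAC) transgene with GFP under control of the TrkC gene, Ntrk3, which marks those TrkC neurons that also express Runx3. The third population, Rx3-/-;PV:tdT, or the mutant PV group, carried the PV:Cre and tdTomato alleles in Runx3 mutants, and is given beside the others for the genes named.

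All animals were on a mixed C57 and Sv129 background and both sexes were used. Each library pooled several pups, except 2 mutant PV libraries from 1 animal each. The wild-type PV libraries came from 4, 3 and 3 animals at postnatal day 6, 4 and 3, and the TrkC libraries from 4, 2 and 4 animals at day 6, 2 and 1. The mutant PV libraries came from 1, 1 and 4 animals at day 3, 0 and 0. The mean age was 4.33 days in wild-type PV neurons, 3.00 days in the TrkC group and 1.00 days in the mutant PV group. Age and population therefore cannot be told apart for a gene that changes in the first week, also where the mutant PV group is set beside the others. In bulk samples, fewer cells of a type and less RNA per cell also cannot be told apart.

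Dorsal root ganglia hold the cell bodies of all somatosensory neurons of the trunk and limbs. Proprioceptors report muscle stretch and tension, depend on the neurotrophin-3 receptor TrkC, and express the transcription factor Runx3 and the calcium buffer parvalbumin. Low-threshold mechanoreceptors (LTMRs) of the skin report touch, either as slowly adapting (SA) fibres that keep firing during a held indentation or as rapidly adapting (RA) fibres that fire at its onset and end. Per the series' text, the wild-type PV group holds proprioceptors with RA-LTMRs, and the TrkC group holds proprioceptors with SA-LTMRs. The comparison therefore asks which genes separate a population with RA-LTMRs from one with SA-LTMRs while proprioceptors are present in both.

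Reads per library and gene were recovered from the deposited group RPKM values for 12501 of the 12691 genes, and the libraries are called A to C in each group from the deepest to the shallowest, since they could not be tied to a replicate number. The 190 genes without recovered reads were abundant, at a deposited RPKM of 26 or more in their larger group, and could not enter the limma fit. The wild-type PV libraries held 13737224, 12150764 and 11567681 counted reads and the TrkC libraries 12225112, 10536972 and 7779765. The wild-type PV libraries differed from each other by a median of 0.17 to 0.19 log2 units per gene and from the TrkC libraries by 0.25 to 0.26. TrkC library B did not lie closer to its own group, at 0.27 from the other TrkC libraries and 0.24 from the wild-type PV libraries. TrkC library C lay farthest from the wild-type PV group, at 0.35. Of the genes kept, 338 had at most 1 read in each of the 6 libraries and passed only because their lengths, at most 101 bases, turn a single read into a high RPKM. None of those 338 was called by edgeR in the authors' deposited table, none had an unadjusted p under 0.05 there, and none entered the limma fit, while 2307 of all genes kept had such an unadjusted p.

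In the authors' deposited table (edgeR, Benjamini-Hochberg adjusted p under 0.05), 138 genes were higher in the wild-type PV group, or 1.09% of the genes kept, and 393 were lower, or 3.10%. The median log2 fold change was 0.97 for the first set and -1.16 for the second in the authors' deposited table, and 65 and 235 genes differed by 2-fold or more. By deposited RPKM alone, 11986 genes, or 94.4%, lay within 2-fold of equality, 102 were at least 2-fold higher in wild-type PV neurons and 603 at least 2-fold lower. In the authors' deposited table the median log2 fold change over all genes kept was -0.09, beside the larger number on the lower side, and its fold changes follow total library sizes. With the recovered reads scaled by median ratios instead, limma called 57 genes higher (0.473% of 12058 tested) and 54 lower (0.448%), all 111 among the deposited calls with the same sign, and the median became -0.01. The share of calls that were higher moved from 26.0% to 51.4% with that change of test and scaling, and was 35.1% in limma scaled to library totals.

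The 3 libraries of a group stood wholly above those of the other for 932 of 12501 genes (7.46%) with the wild-type PV group on top, and wholly below for 2202 (17.6%). Among the deposited calls with recovered reads, 125 of 129 higher genes and 367 of 390 lower genes had such non-overlapping libraries. Calls and libraries rest on the same reads, so this is no separate evidence. Genes called lower were sparser, with a median RPKM of 4.86 in their larger group against 10.9 for genes called higher and 7.62 for all genes kept. By RefSeq biotype, 72 of 391 genes called lower, or 18.4%, were not protein coding, against 6 of 138 called higher (4.35%) and 8.40% of all genes kept. Calls were spread over the genome, from 2.79% of the genes kept on chromosome 2 to 6.52% on chromosome 13, beside 4.18% over all.

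**Figure D1:**
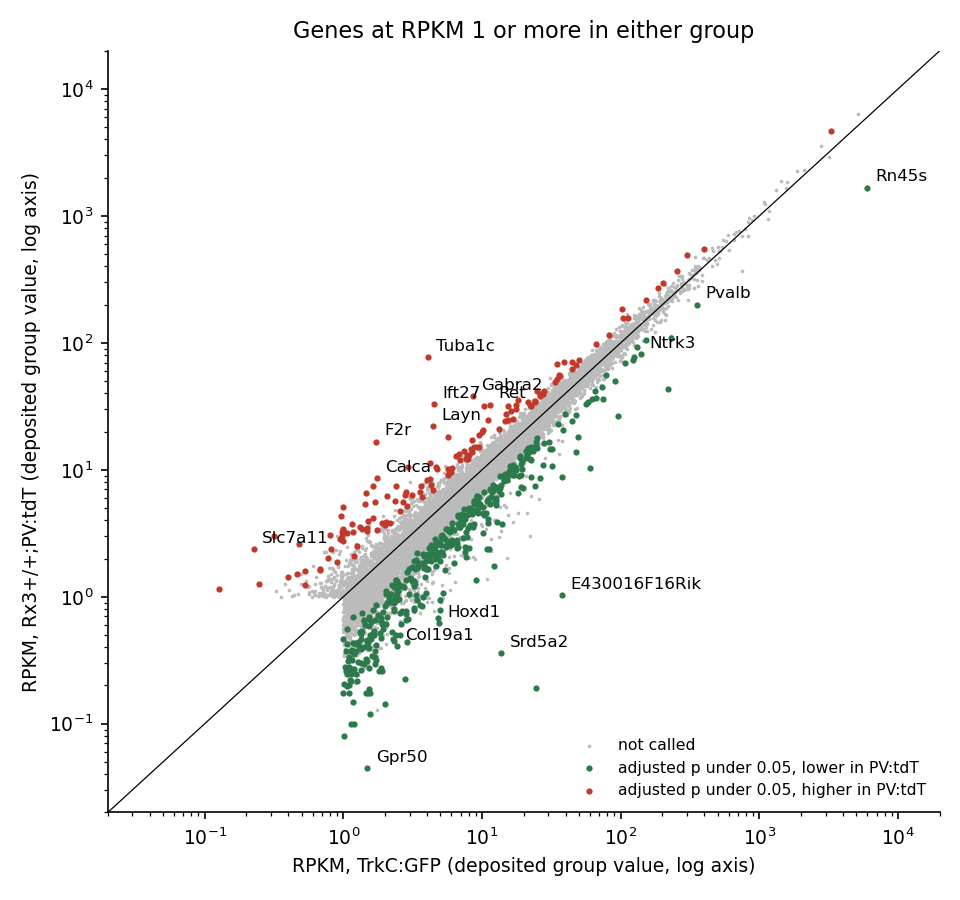
Deposited group RPKM of the 12691 genes in the TrkC group (x axis) and the wild-type PV group (y axis), both on log axes, with the line of equality. The 138 genes called higher in the wild-type PV group are red, the 393 called lower are green, and Tuba1c, E430016F16Rik and Srd5a2 lie far from the line.

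Tuba1c and Gabra2 on the wild-type PV side and Srd5a2 and Hoxd1 on the TrkC side, picked with their values known, mark this contrast. Tuba1c encodes an alpha-tubulin, a building block of microtubules. It had 88.9, 64.5 and 76.7 RPKM in wild-type PV libraries A, B and C and 4.43, 4.08 and 3.71 RPKM in the TrkC libraries. The lowest wild-type PV library was far above the highest TrkC library, and the TrkC libraries were nearly level. The means were 76.7 ± 12.2 and 4.07 ± 0.361 RPKM (SD, n = 3 libraries each). The log2 fold change was 4.23 with an adjusted p of 2.0e-95 in the authors' deposited table (edgeR), and the gene had 136, 83.4 and 101 RPKM in the mutant PV libraries. Tuba1c has close paralogs, and how reads shared between them were counted is not stated in the sources used here. Its paralog Tuba1b had 430.3, 441 and 383 RPKM in the wild-type PV libraries and 505, 516 and 457 RPKM in the TrkC libraries, and was not called.

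Gabra2 encodes the alpha-2 subunit of GABA-A receptors, the chloride channels through which GABA acts on sensory axons. Its levels were 38.6, 34.8 and 40.7 RPKM in the wild-type PV libraries and 8.27, 10.8 and 6.52 RPKM in the TrkC libraries. The groups did not overlap, and the means were 38.0 ± 2.99 and 8.54 ± 2.17 RPKM (SD, n = 3 each). The log2 fold change was 2.15 with an adjusted p of 1.1e-25 in the authors' deposited table (edgeR). The mutant PV libraries had 30.2, 19.2 and 65.0 RPKM, a wide spread that lay above every TrkC library.

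Srd5a2 encodes a steroid 5-alpha-reductase, an enzyme that converts testosterone to dihydrotestosterone and takes part in neurosteroid synthesis. It had 15.6, 8.45 and 17.3 RPKM in the TrkC libraries, from 163, 76 and 115 reads. In the wild-type PV libraries it had 0.0852, 0.482 and 0.506 RPKM, from at most 1 read in library A and 5 reads each in B and C. Nearly all reads of this gene were thus in the TrkC group, with means of 13.8 ± 4.70 and 0.358 ± 0.236 RPKM (SD, n = 3 each). The log2 fold change was -5.26 with an adjusted p of 4.0e-24 in the authors' deposited table (edgeR). The mutant PV libraries had 0.729, 2.12 and 1.3 RPKM.

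Hoxd1 encodes a homeodomain transcription factor of the anterior Hoxd cluster, known in mouse dorsal root ganglia from nociceptors. It had 6.41, 3.67 and 4.49 RPKM in the TrkC libraries and 0.626, 0.398 and 0.836 RPKM in the wild-type PV libraries, with no overlap. The means were 4.86 ± 1.41 and 0.620 ± 0.219 RPKM (SD, n = 3 each). The log2 fold change was -2.97 with an adjusted p of 6.2e-12 in the authors' deposited table (edgeR). The mutant PV libraries had 2.13, 2.25 and 2.86 RPKM, above all 3 wild-type PV libraries, as was also the case for Srd5a2.

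The 250 bases upstream of the annotated start of these 4 genes are given because these genes stand at either end of the contrast. They are RefSeq sequences of GRCm38.p6, the same primary assembly as mm10, each read 5′ to 3′ on the gene's own strand. Capitals mark the letters CCAAT (or ATTGG on the other strand) and GGGCGG (or CCGCCC), known as CCAAT and GC boxes.
Tuba1c, chr15:99029641-99029890, plus strand: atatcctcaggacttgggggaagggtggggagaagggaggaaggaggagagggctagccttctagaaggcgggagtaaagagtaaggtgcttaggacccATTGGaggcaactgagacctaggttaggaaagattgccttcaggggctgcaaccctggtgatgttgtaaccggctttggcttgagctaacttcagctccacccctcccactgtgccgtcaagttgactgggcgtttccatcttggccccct
Gabra2, chr5:71095850-71096099, minus strand: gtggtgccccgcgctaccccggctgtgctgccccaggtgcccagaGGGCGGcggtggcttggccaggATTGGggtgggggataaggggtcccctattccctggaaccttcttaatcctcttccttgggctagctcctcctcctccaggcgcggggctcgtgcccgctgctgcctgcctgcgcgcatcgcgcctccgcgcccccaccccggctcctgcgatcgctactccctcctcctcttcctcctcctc
Srd5a2, chr17:74047861-74048110, minus strand: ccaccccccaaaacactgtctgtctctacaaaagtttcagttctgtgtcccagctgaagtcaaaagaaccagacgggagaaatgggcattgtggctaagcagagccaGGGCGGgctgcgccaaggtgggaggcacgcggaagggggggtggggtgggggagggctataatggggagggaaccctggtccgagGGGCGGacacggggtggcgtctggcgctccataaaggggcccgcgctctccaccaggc
Hoxd1, chr2:74762730-74762979, plus strand: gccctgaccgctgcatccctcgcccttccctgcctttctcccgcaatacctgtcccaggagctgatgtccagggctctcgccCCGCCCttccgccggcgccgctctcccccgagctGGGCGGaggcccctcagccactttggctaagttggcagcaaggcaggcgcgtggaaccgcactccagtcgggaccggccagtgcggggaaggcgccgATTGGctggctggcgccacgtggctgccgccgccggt

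Base composition differed between these windows. The Hoxd1 window was 71.6% G or C with 24 CpG dinucleotides, the Gabra2 window 70.0% with 18, the Srd5a2 window 63.2% with 12 and the Tuba1c window 55.6% with 4, beside a median of 52.4% G or C over 32851 promoter windows of this length. CCAAT was found in the windows of Tuba1c, Gabra2 and Hoxd1, and in 33.8% of all windows on either strand. GGGCGG was found in those of Gabra2, Srd5a2 and Hoxd1, and in 32.7% of all windows. The Runx core letters TGTGGT (or ACCACA) and the letters TATAAA (or TTTATA) were in none of the 4 windows, and in 14.0% and 12.4% of all windows. Neither pair of boxes separates the genes of the wild-type PV side from those of the TrkC side.

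The nearest measured neighbours of both loci used to label the cells were among the genes with the smallest p-values. They belong to the genes named by their small deposited p-values, while their positions were looked up after those values were seen. E430016F16Rik, a long non-coding RNA gene on chromosome 7 (78581066 to 78718220, GRCm38.p6), lies next to Ntrk3 (78179986 to 78581034), the gene of the TrkC BAC. Its lowest coordinate is 32 bases above the highest coordinate of Ntrk3. E430016F16Rik had 32, 34.2 and 47.0 RPKM in the TrkC libraries and 0.876, 0.949 and 1.26 RPKM in the wild-type PV libraries. The log2 fold change was -5.20 with an adjusted p of 1.0e-104 in the authors' deposited table (edgeR), the smallest of all genes kept. The mutant PV libraries, which lack the BAC, had 0.117, 0.185 and 1.00 RPKM.

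Ift27, which encodes a small GTPase of intraflagellar transport in cilia, lies on chromosome 15 (78159460 to 78174081), 17.0 kb from Pvalb (78191112 to 78206400). It had 29.9, 33.8 and 34.8 RPKM in the wild-type PV libraries and 4.46, 4.98 and 4.09 RPKM in the TrkC libraries. The log2 fold change was 2.85 with an adjusted p of 1.7e-46 in the authors' deposited table (edgeR). The mutant PV libraries, which carry PV:Cre too, had 10.7, 6.22 and 6.49 RPKM, between the other groups. Within 1 Mb of Pvalb, 22 genes had more than 1 read in some library, of which 4 were called, beside 4.18% of all genes kept. They were Ift27 and Elfn2, which were higher, and Micall1 and 1700088E04Rik, which overlap each other and were lower. Within 1 Mb of Ntrk3 the call was E430016F16Rik alone among 7 genes. Each driver is carried by 1 of these groups only, so the allele and the population cannot be told apart for these neighbours.

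**Figure D2:**
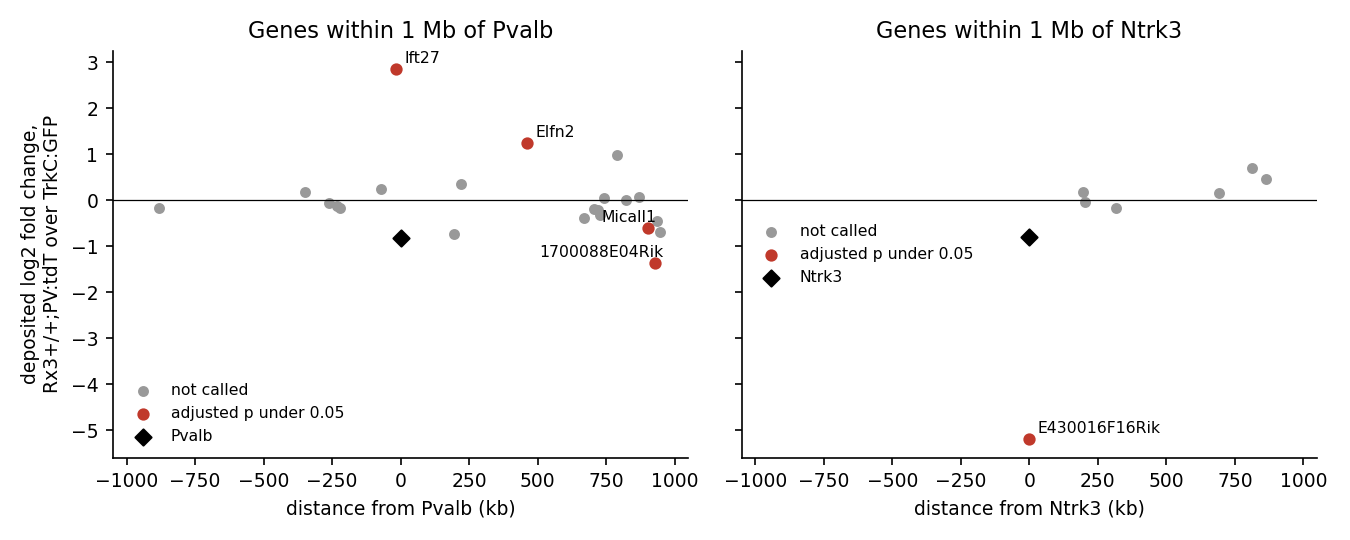
Deposited log2 fold change (y axis) of the genes within 1 Mb of Pvalb and of Ntrk3, by distance from that gene in kb (x axis). Ift27 and E430016F16Rik, the nearest measured neighbours, stand at 2.85 and -5.20, while the other neighbours lie between -1.36 and 1.25.

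The driver genes themselves were lower in the wild-type PV group. Pvalb had 183, 229 and 189.7 RPKM in the wild-type PV libraries against 312, 401 and 346 RPKM in the TrkC libraries, and 93.5, 70.1 and 37.4 RPKM in the mutant PV libraries. Ntrk3 had 85.5, 89.2 and 70.2 RPKM in the wild-type PV libraries and 150.4, 142 and 130.0 RPKM in the TrkC libraries, where more than 1 set of reads fitted the deposited values and the one with the shortest gene was taken. For both genes all 3 TrkC libraries were above all 3 wild-type PV libraries. The log2 fold changes were -0.82 for Pvalb (adjusted p 5.4e-05) and -0.79 for Ntrk3 (adjusted p 3.6e-05) in the authors' deposited table (edgeR). Reads from the BAC copy of Ntrk3 cannot be told apart from those of the endogenous gene. Runx3 was not called, at 34.7, 30.2 and 26.2 RPKM in the wild-type PV libraries and 32.1, 34.1 and 35.1 RPKM in the TrkC libraries.

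Other genes higher in the wild-type PV group included receptors and secreted signals. F2r, the thrombin receptor PAR1, had 25.3, 6.29 and 18.4 RPKM in the wild-type PV libraries and 1.91, 1.79 and 1.44 RPKM in the TrkC libraries. Layn, a hyaluronan receptor, had 25.4, 13.6 and 26.9 RPKM against 5.40, 4.14 and 3.67 RPKM. In both genes wild-type PV library B was the lowest of its group and still above every TrkC library, and the mutant PV group was higher again, with deposited RPKM of 104 for F2r and 107 for Layn. The log2 fold changes were 3.28 for F2r (adjusted p 2.9e-13) and 2.31 for Layn (adjusted p 2.6e-13) in the authors' deposited table (edgeR).

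Calca, the gene of the neuropeptide CGRP, had 11.4, 7.35 and 7.14 RPKM in the wild-type PV libraries and 2.31, 1.78 and 1.12 RPKM in the TrkC libraries. Its log2 fold change was 2.28 (adjusted p 4.3e-09) in the authors' deposited table (edgeR). The neighbouring paralog Calcb moved the other way, with 2.42, 1.88 and 2.52 RPKM against 6.38, 7.30 and 9.09 RPKM. Its log2 fold change was -1.72 (adjusted p 1.3e-05) in the authors' deposited table (edgeR). Calca was uneven in the mutant PV libraries, at 99.1, 4.19 and 189 RPKM.

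Slc7a11, the light chain of the cystine and glutamate exchanger, had 2.31, 2.5 and 2.29 RPKM in the wild-type PV libraries and 0.233, 0.354 and 0.0914 RPKM in the TrkC libraries. The wild-type PV libraries agreed closely, and the TrkC values rested on 32, 42 and 8 reads. Its log2 fold change was 3.34 (adjusted p 7.9e-24) in the authors' deposited table (edgeR), and its deposited RPKM in the mutant PV group was 2.01. Atp10d, a phospholipid flippase, had 3.56, 4.01 and 3.6 RPKM against 0.703, 1.16 and 1.58 RPKM. Gcnt4, a glycosyltransferase of O-glycans, had 8.94, 4.99 and 8.50 RPKM against 1.94, 2.18 and 0.807 RPKM. Serpina3n, a secreted protease inhibitor, had 12.6, 24.2 and 17.8 RPKM against 6.47, 5.87 and 4.69 RPKM.

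Angpt2 and Itga2 were higher in the wild-type PV group but low in the mutant PV group. Angpt2, a ligand of the Tie2 receptor, had 7, 8.31 and 6.95 RPKM in the wild-type PV libraries, 2.21, 2.68 and 2.34 RPKM in the TrkC libraries and 0.314, 0.963 and 2.51 RPKM in the mutant PV libraries. Itga2, a collagen-binding integrin subunit, had 32.9, 31.0 and 32.3 RPKM in the wild-type PV libraries, 14.8, 9.65 and 6.49 RPKM in the TrkC libraries and 1.49, 3.29 and 1.26 RPKM in the mutant PV libraries. Their log2 fold changes were 1.62 for Angpt2 (adjusted p 6.1e-09) and 1.63 for Itga2 (adjusted p 4.4e-09) in the authors' deposited table (edgeR).

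The genes with the largest fold changes on this side also included Kcnk2, Mstn, H60b and Klk1b22. Mstn, the growth factor myostatin, had 1.55, 0.890 and 1.32 RPKM in the wild-type PV libraries and 0.152, 0.248 and 0.335 RPKM in the TrkC libraries. H60b, a ligand of the NKG2D receptor, had 3.90, 1.21 and 3.91 RPKM against 0.516, 0.299 and 0.135 RPKM, and a deposited RPKM of 48.1 in the mutant PV group. Klk1b22, a kallikrein of a large gene family, had 36 reads over the wild-type PV libraries and at most 1 read in each TrkC library, which is at least 9.78-fold higher against a floor of 3 reads over the TrkC group. Its levels were uneven, at 2.10, 1.13 and 0.216 RPKM in the wild-type PV libraries, and the bound fell to 5.58-fold without library A. Limma gave Klk1b22 an adjusted p of 0.156 with all libraries and 0.109 to 0.425 with 1 left out.

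**Figure D3:**
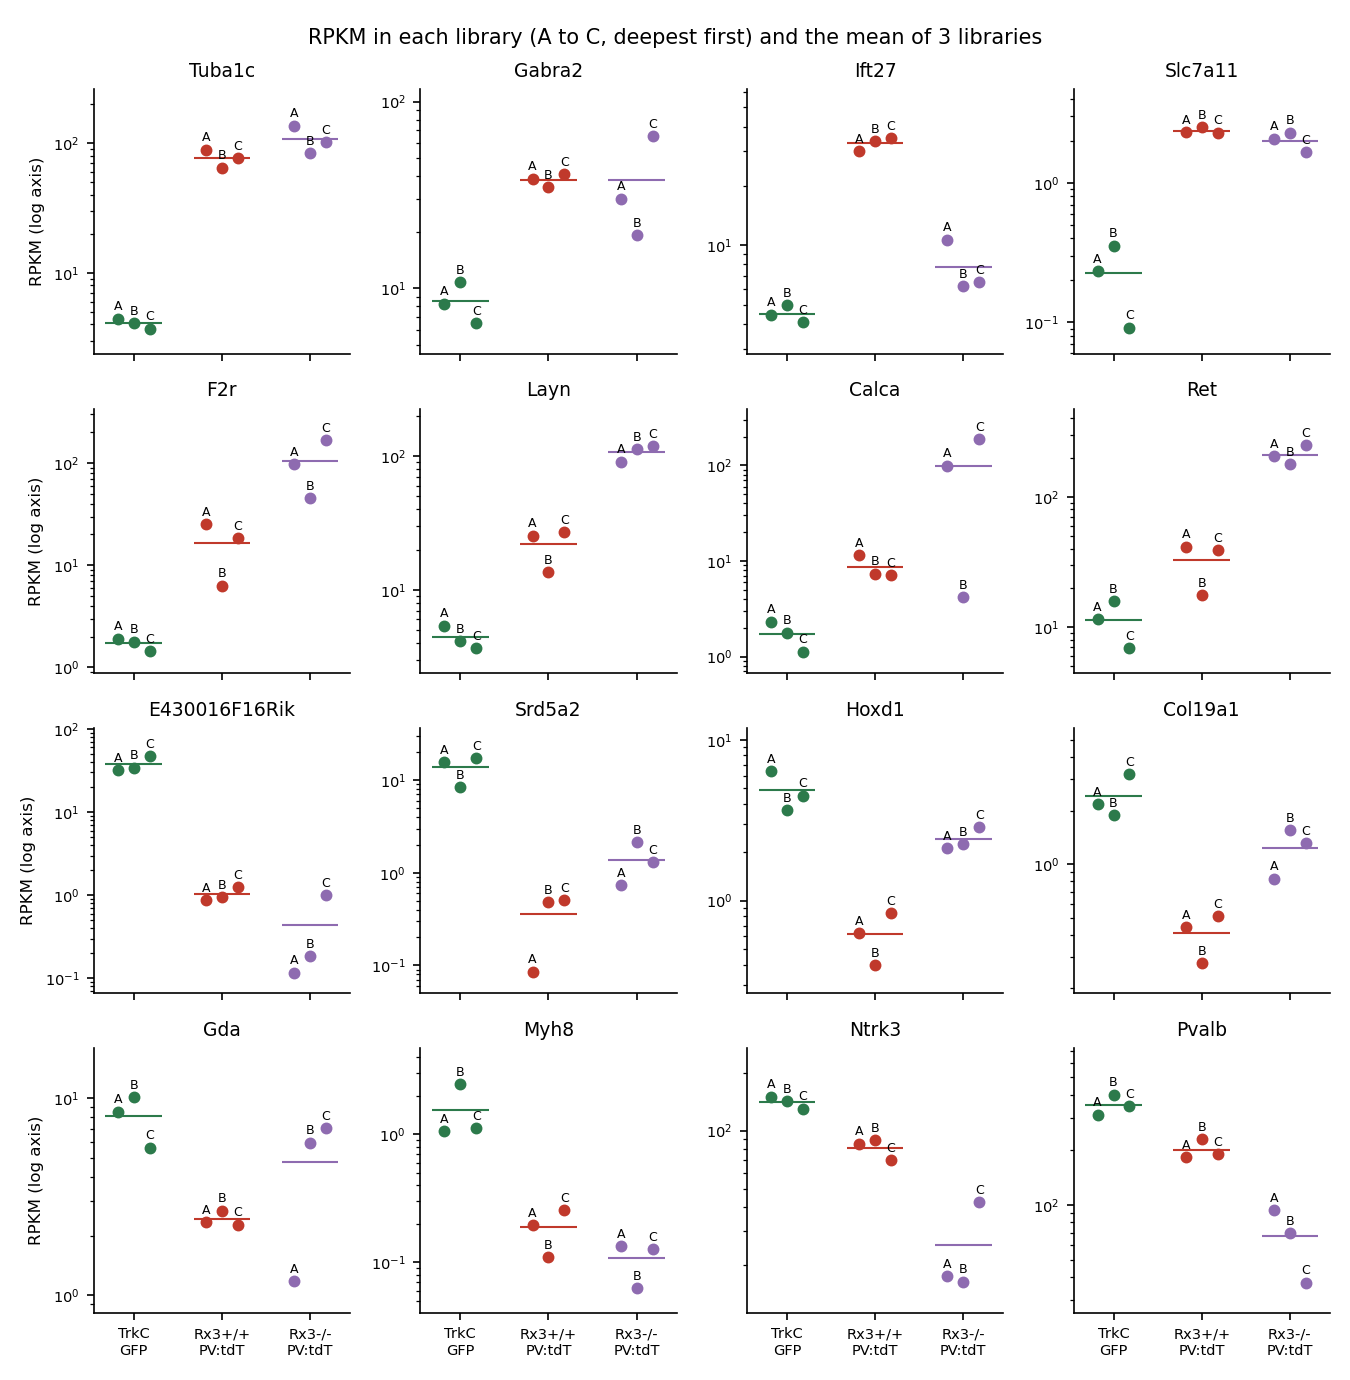
RPKM in each library, on log axes, for 16 named genes in the TrkC group (green), the wild-type PV group (red) and the mutant PV group (purple), with letters naming the libraries and a line at the mean of 3 libraries. Tuba1c, Gabra2 and Ift27 show wild-type PV libraries well above all TrkC libraries, and E430016F16Rik, Srd5a2, Hoxd1 and Col19a1 show the reverse.

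The 12 genes with the smallest p-values on the TrkC side also included genes of collagens and a membrane protein. Col19a1, a collagen of basement membranes, had 2.17, 1.88 and 3.21 RPKM in the TrkC libraries and 0.444, 0.277 and 0.512 RPKM in the wild-type PV libraries. Col25a1, a transmembrane collagen, had 1.27, 1.05 and 1.03 RPKM against 0.337, 0.187 and 0.281 RPKM. Tspan8, a tetraspanin, had 20.6, 17.1 and 19.8 RPKM against 7.99, 7.08 and 6.87 RPKM. The groups did not overlap for any of these, and the log2 fold changes were -2.55 for Col19a1 (adjusted p 5.5e-15), -2.05 for Col25a1 (6.2e-09) and -1.39 for Tspan8 (6.8e-09) in the authors' deposited table (edgeR).

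Gda, a guanine deaminase, had 8.55, 10.1 and 5.62 RPKM in the TrkC libraries and 2.36, 2.69 and 2.28 RPKM in the wild-type PV libraries. Epb4.1l4b, a band 4.1 family protein, had 12.0, 12.1 and 14.0 RPKM against 5.29, 4.34 and 6.2 RPKM. Rps3a, a ribosomal protein gene whose annotation overlaps small nucleolar RNA genes, had 97.2, 76.1 and 116 RPKM against 33.5, 33.0 and 13.6 RPKM. Reads of Rps3a can be shared with near-identical copies. Gm7271, which was not checked for such copies, had 52.6, 27.9 and 33.5 RPKM against 11.9, 4.84 and 9.31 RPKM. The gene 1700088E04Rik, which overlaps Micall1, had 25.5, 21.0 and 21.3 RPKM against 10, 7.18 and 9.19 RPKM.

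Several of the largest fold changes on the TrkC side rested on few reads or on 1 library. Ptgds, a prostaglandin D synthase, had 71.6 RPKM in TrkC library B but 0.711 and 1.76 RPKM in A and C, and at most 0.362 RPKM in the wild-type PV libraries. In the authors' deposited table (edgeR) its log2 fold change of -7.47 (adjusted p 2.2e-04) was the largest of all genes kept, while limma on the recovered reads gave an adjusted p of 0.144. Gpr50, an orphan receptor related to melatonin receptors, had 76 reads over the TrkC libraries and at most 1 in each wild-type PV library, which is at least 31.1-fold lower in the wild-type PV group against a floor of 3 reads over that group. Limma gave Gpr50 an adjusted p of 0.0321 with all libraries and 0.00105 to 0.14 with 1 left out. Hist1h4a, one of many near-identical histone genes, had 18 reads against at most 1 per library, at least 7.36-fold lower, and limma gave it an adjusted p of 0.0898, with 0.09 to 0.26 when 1 library was left out. Rmst, a non-coding RNA gene, had 1.21, 0.709 and 4.04 RPKM in the TrkC libraries and 0.167, 0.110 and 0.149 RPKM in the wild-type PV libraries. Gm14378 and Gm15545 had at most 1.78 RPKM in any of these 6 libraries, and limma called Gm15545 but not Gm14378 (adjusted p 0.0529).

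Genes with reads in 1 group and at most 1 read in every library of the other were rare. The authors' deposited table called 1 of them higher in the wild-type PV group, Klk1b22, and 2 higher in the TrkC group, Gpr50 and Hist1h4a. The uncalled genes of this kind with the most reads were Riiad1, Mir1933 and Mir3471-1 on the TrkC side, with 28, 13 and 13 reads. On the wild-type PV side they were Nutf2-ps1 with 7 reads and 1110019D14Rik, Mir491 and Mir695 with 5 reads each. The other calls thus had more than 1 read in some library of both groups wherever reads were recovered.

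Of 10 genes kept from a list of RA-LTMR genes, Ret was called higher and Calb1 lower, beside 1.09% and 3.10% of all genes kept. At an unadjusted p under 0.05 the authors' deposited table had 5 of them higher and 2 lower, and the median log2 fold change was 0.44 in the authors' deposited table beside -0.09 for all genes kept. Ret, the signalling receptor for GDNF family ligands, had 41.5, 17.5 and 38.8 RPKM in the wild-type PV libraries, 11.5, 15.8 and 6.85 RPKM in the TrkC libraries and 206, 179 and 248 RPKM in the mutant PV libraries. The lowest wild-type PV library was just above the highest TrkC library. Ret's log2 fold change was 1.52 (adjusted p 2.5e-04) in the authors' deposited table (edgeR), and limma gave 1.59 ± 0.35 (SE) with an adjusted p of 0.0734. Ntrk2, the BDNF receptor, had 8.26, 3.08 and 6.26 RPKM against 5.04, 1.37 and 2.69 RPKM and was not called, and the groups overlapped. Maf, a transcription factor of RA-LTMRs, had 5.54, 4.66 and 7.29 RPKM against 5.64, 5.39 and 5.05 RPKM, while the mutant PV group had a deposited RPKM of 31.0. Calb1, a calcium buffer, had 5.89, 3.85 and 6.36 RPKM against 11.4, 7.12 and 10.7 RPKM. Gfra2, Tbx3 and Etv5 were not called.

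Proprioceptor genes, whose cells the labels place in both groups, gave 2 higher and 2 lower calls of 13 in the authors' deposited table, beside 1.09% and 3.10% of all genes kept, and their median log2 fold change was 0.04. The lower calls were Pvalb and Ntrk3, and the higher calls were Etv1 and Spp1. Etv1, a transcription factor required by proprioceptors, had a deposited RPKM of 551 in wild-type PV neurons and 402 in the TrkC group, and its reads per library could not be recovered. Spp1, which encodes osteopontin, had 22.3, 23.3 and 29.1 RPKM in the wild-type PV libraries and 10.2, 16.9 and 6.05 RPKM in the TrkC libraries. Whrn, which encodes the scaffold protein whirlin, had 5.15, 8.87 and 5.09 RPKM against 4.79, 8.83 and 6.89 RPKM and was not called. In the mutant PV libraries Whrn was at most 0.202 RPKM, below every library of the groups compared. Of 8 genes on the list for the TrkC lineage and SA-LTMRs, Nefh was called higher and Ntrk3 lower. Shox2, a transcription factor on that list, had 17.9, 18.2 and 19.3 RPKM against 17.7, 14.8 and 16.8 RPKM, and Fam38b (Piezo2), the main channel of touch transduction, had deposited RPKM of 153 and 149.

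Libraries of 1 group varied in these genes. Wild-type PV library B had the lowest Ret, F2r, Layn, Ntng1 and Ntrk2 of its group, and the highest Whrn, Chad, Heg1, Nxph1, Esrrg and Tuba8. Heg1, for example, had 24.7 RPKM in wild-type PV library B against 10.6 and 11.1 RPKM in A and C. TrkC library B likewise had the highest of these 6 genes in its group, with Heg1 at 20.8 RPKM against 12.1 and 9.26 RPKM, and Nxph1, a neurexin ligand, at 6.84 RPKM against 1.5 and 1.06 RPKM. TrkC library B also had the lowest Fabp7, Apoe and Sox10 of its group, with the glial lipid-binding protein gene Fabp7 at 35.7 RPKM against 323 and 227 RPKM in A and C. These genes were picked after their values were seen. What part this variation plays in the contrast was not tested, and the value for each left-out library is given at the end.

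**Figure D4:**
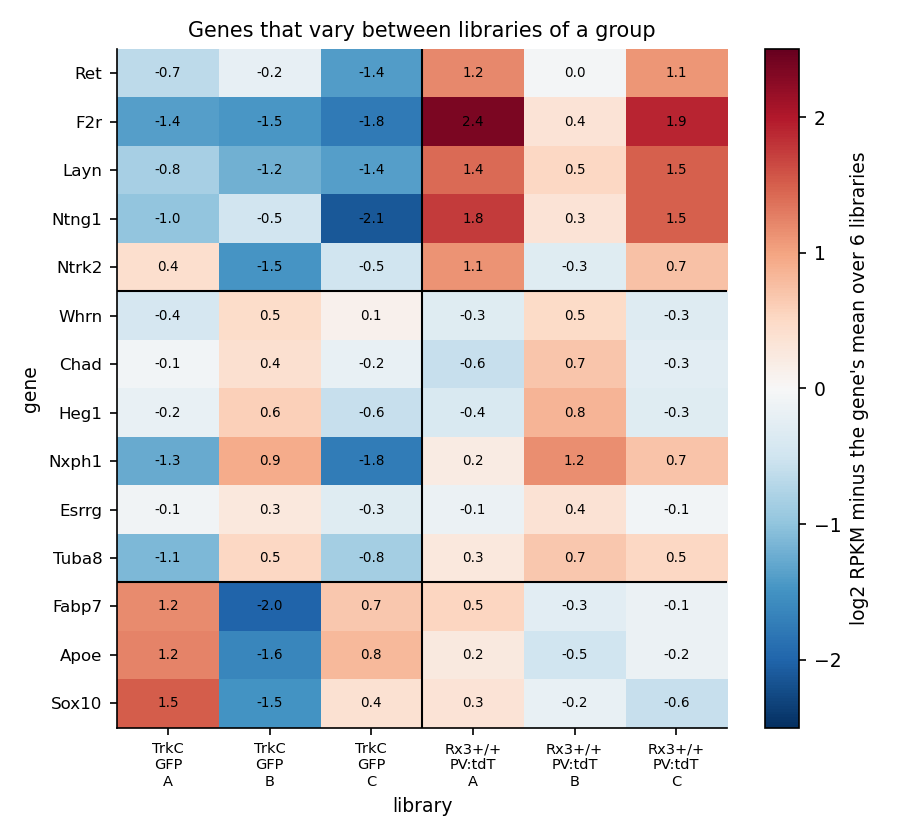
Log2 RPKM of 14 genes in each of 6 libraries (columns), minus the gene's mean over the 6, in blue for low and red for high. The top block of 5 genes is lowest within the wild-type PV group in library B, the middle block of 6 is highest in library B of both groups, and the bottom block of 3 glial genes is lowest in TrkC library B.

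Genes of nociceptors, itch and C-fibre neurons gave 1 higher and 3 lower calls of 11, beside 1.09% and 3.10% of all genes kept, with a median of -0.20 in the authors' deposited table. Calca was the higher one, described above. Fam19a4 (Tafa4), a secreted protein of C-fibre touch neurons, had 2.27, 1.92 and 2.93 RPKM in the wild-type PV libraries and 14.4, 5.05 and 13.1 RPKM in the TrkC libraries. Slc17a8, the vesicular glutamate transporter VGLUT3 of the same fibres, had 0.633, 0.576 and 0.605 RPKM against 2.43, 1.15 and 2.15 RPKM. Gal, the neuropeptide galanin, had 1.46, 1.3 and 0.495 RPKM against 7.14, 2.04 and 6.44 RPKM. P2rx3, Tac1 and Trpm8, the most abundant uncalled genes on this list, had deposited RPKM of 32.5, 68.8 and 3.34 in wild-type PV neurons and 37.3, 45.9 and 4.70 in the TrkC group.

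Of 11 GABA-A receptor subunit genes, Gabra2 and Gabrg1 were called higher and none lower, beside 1.09% and 3.10% of all genes kept. Gabrg1, the gamma-1 subunit, had 17.2, 10.9 and 23.2 RPKM in the wild-type PV libraries and 7.44, 11.3 and 6.58 RPKM in the TrkC libraries, with wild-type PV library B inside the TrkC range. Gabra5, the alpha-5 subunit, was not called and had 40.4, 48.3 and 34.0 RPKM against 48.9, 37.6 and 32.4 RPKM. Of 9 glycine, nicotinic and 5-HT3 receptor genes, Glrb, the glycine receptor beta subunit, was called higher at 65.7, 69.7 and 76.2 RPKM against 43.3, 51.0 and 39.8 RPKM, and Chrnb1 was called lower. Of 16 glutamate receptor genes, Gria1 was called lower, at 1.49, 2.5 and 1.89 RPKM against 3.33, 2.91 and 3.81 RPKM.

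Of 52 potassium channel genes, 1 was called higher and 2 lower, beside 1.09% and 3.10% of all genes kept. Their median log2 fold change was 0.02 in the authors' deposited table. Kcnk2 (TREK-1), a channel opened by stretch, had 2.71, 2.11 and 2.98 RPKM in the wild-type PV libraries and 0.720, 0.541 and 0.166 RPKM in the TrkC libraries, with no overlap. The authors' deposited table (edgeR) gave it a log2 fold change of 2.39 (adjusted p 1.1e-07). Kcnc4, a voltage-gated potassium channel subunit, had 11.5, 9.61 and 10.4 RPKM against 16.7, 18.2 and 17.2 RPKM. Kcnt1, a sodium-activated channel, had 4.01, 4.55 and 4.32 RPKM against 5.19, 7.54 and 7.36 RPKM. Kcnk2 was also the single call among 11 mechanotransduction and acid-sensing channel genes. None of 12 voltage-gated sodium channel genes and none of 14 TRP and P2X genes was called by edgeR in the authors' deposited table, with 2 and 3 of them at an unadjusted p under 0.05, and limma called none of either. Of 16 calcium channel genes, Cacna1c, the CaV1.2 pore subunit, was called lower, with 4.22, 4.83 and 4.21 RPKM against 6.43, 6.09 and 7.75 RPKM.

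Tuba1c was the single call among 19 tubulin genes, whose median log2 fold change was -0.12 in the authors' deposited table. Over all genes kept, 1.09% were called higher and 3.10% lower. Srd5a2 was likewise the single call among 6 neurosteroid enzyme genes. Its paralog Srd5a1 had 11.1, 10.8 and 10.3 RPKM in the wild-type PV libraries and 11.2, 10.2 and 8.87 RPKM in the TrkC libraries and was not called. Of 20 neurotrophic ligand and receptor genes, Ret and Sorl1 were called higher, and Ntrk3 and Kit lower. Sorl1, a sorting receptor, had 5.75, 4.41 and 5.33 RPKM against 2.58, 3.41 and 2.69 RPKM. Kit, a receptor tyrosine kinase, had 3.12, 1.84 and 2.31 RPKM against 7.92, 2.06 and 9.76 RPKM, with TrkC library B inside the wild-type PV range.

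Of 43 somatosensory transcription factor genes, Etv1 was called higher, and Bcl11a and Tle1 lower, beside 1.09% and 3.10% of all genes kept. Bcl11a had 1.17, 1.73 and 1.17 RPKM in the wild-type PV libraries and 2.32, 1.77 and 3.06 RPKM in the TrkC libraries. Of 22 Hox genes, Hoxb8 was called higher and Hoxc4, Hoxc5 and Hoxd1 lower, with a median of -0.27 in the authors' deposited table. Hoxb8 had 2.5, 1.37 and 2.22 RPKM in the wild-type PV libraries and 0.649, 1.15 and 0.535 RPKM in the TrkC libraries. Hoxc5 had 0.747, 0.784 and 1.04 RPKM against 1.68, 2.61 and 6.36 RPKM, and Hoxc4 had 3.01, 4.41 and 3.19 RPKM against 5.26, 6.45 and 9.24 RPKM. Other genes of the Hoxd cluster were not called, as Hoxd3 had 0.675, 0.764 and 0.869 RPKM against 1.45, 1.05 and 0.729 RPKM. Hox genes mark position along the body axis, and which segmental levels each library sampled is not stated in the sources used here.

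**Figure D5:**
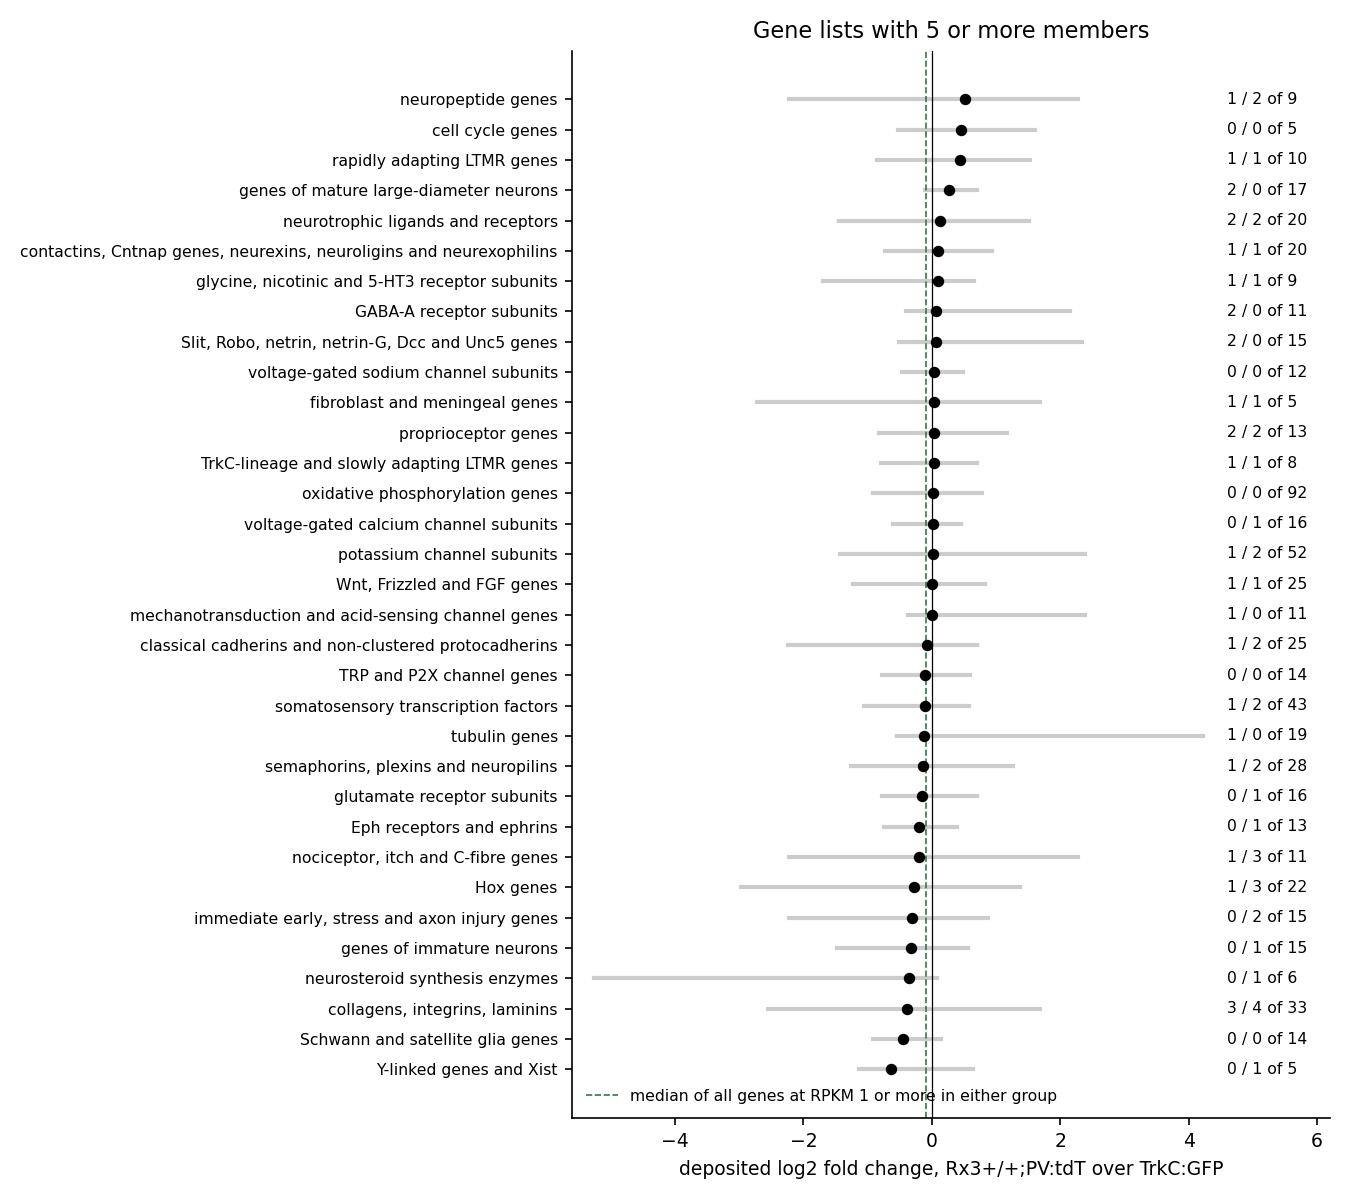
Median (points) and range (grey bars) of the deposited log2 fold change for each gene list with 5 or more genes kept, with the number called higher and lower of the genes kept at the right, and the median of all genes kept as a dashed line at -0.09. List medians lie between -0.63 and 0.51, with Tuba1c and Srd5a2 as the far ends of the tubulin and neurosteroid bars.

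Of 15 Slit, Robo and netrin genes, Ntng1 and Robo2 were called higher and none lower, beside 1.09% and 3.10% of all genes kept. Ntng1, which encodes netrin-G1, had 6.97, 2.61 and 5.81 RPKM in the wild-type PV libraries and 1.04, 1.49 and 0.474 RPKM in the TrkC libraries, and 48.8 deposited RPKM in the mutant PV group. Robo2, a Slit receptor, had 29.8, 28.0 and 32 RPKM against 17.3, 20.5 and 14.8 RPKM, with the shortest of several gene lengths that fitted. Of 28 semaphorin, plexin and neuropilin genes, Sema5b was called higher, and Nrp1 and Sema3e lower. Nrp1, a semaphorin receptor subunit, had 5.63, 2.46 and 5.70 RPKM against 11.1, 6.34 and 10.5 RPKM. Of 13 Eph receptor and ephrin genes, Epha10 was called lower.

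Of 25 cadherin genes, Cdh7 was called higher, and Cdh3 and Cdh4 lower, beside 1.09% and 3.10% of all genes kept. Cdh7 had 16.2, 13.0 and 16.3 RPKM in the wild-type PV libraries and 12.0, 7.90 and 7.90 RPKM in the TrkC libraries, and Cdh3 had 0.838, 0.165 and 0.498 RPKM against 2.95, 1.83 and 2.41 RPKM. Of 20 contactin, Cntnap, neurexin and neuroligin genes, Cntnap5b was called higher and Nrxn3, a presynaptic neurexin, lower. Cntnap5b had 11.6, 11.9 and 12.3 RPKM against 7.56, 7.75 and 5.62 RPKM, and Nrxn3 had 10.7, 11.2 and 10.8 RPKM against 16.5, 15.1 and 18.3 RPKM. Of 33 collagen, integrin and laminin genes, 3 were called higher (Itga2, Itga9 and Col3a1) and 4 lower (Col19a1, Col25a1, Col6a2 and Col9a3). Those counts stand beside 1.09% and 3.10% of all genes kept, and the list's median was -0.39 in the authors' deposited table. Of 25 Wnt, Frizzled and FGF genes, Fgf1 was called higher, at 184 against 103 deposited RPKM, and the Wnt antagonist Sfrp4 lower.

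Genes of mature large neurons and of immature neurons were compared because of the difference in age. Of 17 genes of mature large-diameter neurons, Nefm and Nefh, which encode neurofilament subunits, were called higher and none lower. Over all genes kept, 1.09% were called higher and 3.10% lower. The list's median was 0.26 in the authors' deposited table. Nefm had 4699 against 3277 deposited RPKM and Nefh 489 against 300.0 deposited RPKM, and reads per library could not be recovered for either. Of 15 genes of immature neurons, Dcx was called lower, with 9.34, 5.75 and 6.33 RPKM in the wild-type PV libraries and 30.1, 4.50 and 25.1 RPKM in the TrkC libraries, and the median was -0.32. TrkC library B was below all wild-type PV libraries for Dcx. Of 92 oxidative phosphorylation genes and 5 cell cycle genes none was called by edgeR in the authors' deposited table or by limma, with 6 and 4 of them at an unadjusted p under 0.05 in that table. Of 15 stress and injury genes Fosb and Gal were called lower. The part of age in these values was not tested.

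Markers of other cell types were low except for glia. The 17 recovered glial genes summed to 362 to 515 RPKM in the wild-type PV libraries and 330 to 673 RPKM in the TrkC libraries, and none of 14 kept was called by edgeR in the authors' deposited table or by limma, none had an unadjusted p under 0.05 in either, and the median was -0.45. S100b, Fabp7 and Ngfr, the most abundant, had deposited RPKM of 114, 151 and 183 in wild-type PV neurons and 103, 195 and 190.3 in the TrkC group, and neurons also express Ngfr and S100b. Summed levels were 1.82 to 4.00 RPKM against 3.42 to 4.52 for 13 endothelial genes, 2.67 to 6.21 against 5.48 to 8.94 for 12 immune genes and 1.40 to 2.3 against 2.25 to 5.43 for 7 erythroid genes. The most abundant uncalled genes of these lists, Pecam1, Cd79a, Fcer1g and Alas2, were each at most 4.86 RPKM in these libraries. For 10 fibroblast genes the sums were 8.39 to 13.2 against 7.49 to 16.6 RPKM, with Col3a1 called higher, Igf2 called lower, and Ogn, Col1a2 and Dcn not called. Over all genes kept, 1.09% were called higher and 3.10% lower. The single muscle gene kept, Myh8, a perinatal myosin heavy chain, had 0.195, 0.110 and 0.256 RPKM in the wild-type PV libraries and 1.05, 2.45 and 1.11 RPKM in the TrkC libraries and was called lower. The part of other cell types in the contrast was not tested.

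The mix of sexes and of RNA kinds also differed between libraries. Xist, the RNA of the inactive X chromosome, had 6.25, 7.75 and 8.84 RPKM in the wild-type PV libraries and 10.5, 4.15 and 0.0574 RPKM in the TrkC libraries, so that TrkC library C was nearly without it. The Y-linked gene Eif2s3y was called lower, with 14.1, 14.8 and 14.5 RPKM against 18, 37.1 and 40.6 RPKM, and Ddx3y, Kdm5d and Uty were not called. Rn45s, the ribosomal RNA precursor, had a deposited RPKM of 1671 in wild-type PV neurons and 5966 in the TrkC group, and Lars2, a gene at which ribosomal RNA reads often align, had 43.4 against 219. Both were called lower, and the log2 fold changes were -1.84 for Rn45s and -2.33 for Lars2 in the authors' deposited table. Of 79 genes with ribosomal protein symbols, a set taken up after the values were seen, 5 were called lower and none higher in the authors' deposited table (edgeR), none was higher at an unadjusted p under 0.05 there, and limma called none higher. Over all genes kept, the deposited calls were 1.09% higher and 3.10% lower. Whether RNA quality takes part in the longer list of lower genes was not tested.

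Just inside the RPKM limit were Pak4 and Rell1, both at 1.00 RPKM in the TrkC group and at 0.557 and 0.597 RPKM in wild-type PV neurons, and neither was called. Just outside it were Rtkn2 at 0.999 and 0.991 RPKM, Asap3 at 0.801 and 1.00 RPKM and Acta2 at 0.361 and 0.999 RPKM in the wild-type PV and TrkC groups. Of the 12691 genes, 11618 were at 1 RPKM or more in both groups, 159 in the wild-type PV group alone and 914 in the TrkC group alone.

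The deposited comparisons of each group with the mutant PV group share libraries with this one, so their values are set side by side without a test of likeness. For Tuba1c the log2 fold change was -4.71 for TrkC over mutant PV and -0.48 for wild-type PV over mutant PV in the authors' deposited table. The same values in the authors' deposited table were -2.15 and 0.00 for Gabra2, 3.30 and -1.94 for Srd5a2, and 1.03 and -1.94 for Hoxd1. Tuba1c (adjusted p 0.106), Gabra2 (adjusted p 1) and Srd5a2 (adjusted p 0.0808) were not called between the PV groups in the authors' deposited table (edgeR). Hoxd1 was called there (adjusted p 8.5e-04). Between the TrkC and mutant PV groups, that table (edgeR) called Tuba1c, Gabra2 and Srd5a2 but not Hoxd1 (adjusted p 0.102). The mean levels of Srd5a2 and Hoxd1 were lowest in the wild-type PV group. For the reporter neighbours, the authors' deposited table gave -0.80 and 2.05 for Ift27 and 6.76 and 1.40 for E430016F16Rik. By edgeR there, Ift27 was called for the second comparison alone (adjusted p 0.149 and 4.2e-15). E430016F16Rik was called for the first alone (adjusted p 7.7e-39 and 0.211).

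The contrast rests on 3 libraries a group, and few genes stayed past the threshold in every subset. With each library left out in turn, 11 genes kept a limma adjusted p under 0.05 each time, namely Tuba1c, Ift27, Gabra2, Slc7a11, Layn and Angpt2 on the wild-type PV side and E430016F16Rik, Srd5a2, Hoxd1, Col19a1 and Tspan8 on the TrkC side. The number of limma calls ranged from 7 to 616 higher and from 8 to 464 lower, the largest without TrkC library B. An exact permutation test of 1 gene with 3 against 3 libraries cannot go below a two-sided p of 0.1.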

How the data were processed

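Per the labels' protocols, RNA of sorted neurons was amplified, and poly-A libraries were sequenced from 1 end. The submitters' processing notes name mm10 and edgeR, while the sources used here give no aligner, counting rule, strand setting or edgeR design. The authors deposited 1 RPKM value per gene and group and, per comparison, a log2 fold change, a p-value, an adjusted p, a mean log2 CPM and a flag (a score). The TrkC:GFP column has the name Rx3 in the header, and was assigned from the comparison's name and from equal values in another table. Members and lists were chosen with earlier results of these data known. Called means an adjusted p under 0.05 over 23038 genes in the authors' deposited edgeR results. Genes named are the 12 of smallest p and the 8 of largest fold per direction, the 4 markers, reporter and lineage genes, up to 4 called genes per direction and list, uncalled markers of highest RPKM, genes with reads in 1 group alone, and those nearest the RPKM limit. Any other gene was chosen after its values were seen.

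The deposited RPKM equals the mean over 3 libraries of reads scaled to gene length and library size, with 0 reads counted as 1. Whole reads per library and gene length were solved from the 3 group values (sympy 1.14.0), with 1 combination for 22657 genes (98.3%), several for 191 (the shortest length taken) and none for 190. For 11878 genes with over 1 read in all 6 libraries, the log2 ratio of mean CPM differed from the deposited log2 fold change by a median of 0.00212. Limma 3.58.1 (R 4.3.3, with trend) was fitted to log2 CPM with 0.5 reads added, for genes with 10 or more reads, scaled by median ratios, and compares the wild-type PV with the TrkC libraries. Both steps were tested on simulated data. The at-least folds set the reads seen in the higher group against a floor of 1 read per library in the other. They allow for 0 and 1 read looking alike, but not for counting error. Amplified reads are not independent molecules either. A p-value measures only the spread between pools, which may in part be technical, since no label ties pools to litters or sorting days. Sequences and coordinates are from RefSeq GRCm38.p6, to which 22959 gene IDs matched. Symbols are those of the deposited tables. A few genes that the rules above would name are not reported here.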

Additional observations from a re-analysis of the deposited data

How the results depend on the processing

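The 138 genes called higher became 75 at an adjusted p under 0.01, 65 with a 2-fold change required, 49 by the authors' flag, 57 in limma on the recovered reads and 52 in limma scaled to library totals. The 393 genes called lower became 194, 235, 115, 54 and 96 under the same settings, 192 at 5 RPKM or more in either group and 258 at 1 RPKM or more in both. Limma calls with 1 library left out ranged from 7 to 616 higher and from 8 to 464 lower, against 57 and 54 with all libraries. The counts were 616 and 464 without TrkC library B, 13 and 10 without TrkC library C, 26 and 34 without TrkC library A, 9 and 8 without wild-type PV library A, 20 and 17 without B, and 7 and 8 without C, where the lone pair of libraries leaves fewer samples. Genes with non-overlapping libraries became 1716 higher and 499 lower on raw reads. With 1 library left out they ranged from 1154 to 1730 higher and from 2675 to 3965 lower, the most without TrkC library B, and were 1509 and 3396 without TrkC library A and 1438 higher without wild-type PV library B. Leaving a library out can only keep or add such genes, so the direction of that change was fixed in advance. The median log2 RPKM ratio of -0.11 became -0.33 with no RPKM limit, -0.04 at 5 RPKM and 0.00 when centred. The 59 called list members became 39 at an adjusted p under 0.01 and 20 in limma. Limma could not test those without recovered reads, among them Etv1, Nefm, Nefh, Fgf1, Rn45s and Lars2. Of 37 named called genes none changed direction, and limma lost 5 of them with all libraries and 3 to 23 with 1 left out. The limma settings were chosen after seeing the data, and the causes of these shifts were not tested. No paired analysis was possible because the recovered libraries carry no replicate number. Depth limits genes of few reads, since 0 and 1 read cannot be told apart in a library.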

Other observations

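Heat shock protein and co-chaperone genes, a list made after the values were seen, held 8 genes higher and none lower in wild-type PV neurons, of 43 kept, in the authors' deposited table (edgeR), and limma called 3 higher and none lower. Over all genes kept the shares were 1.09% higher and 3.10% lower, and a list made from its values is no independent evidence. The 8 were Hsph1, Hsp90aa1, Hspa4, Hspa4l, Stip1, Hsp90b1, Chordc1 and Hspb6, and the list's median log2 fold change was 0.09. Reads were not recovered for Hsp90aa1, Hspa4 and Hsp90b1, so limma could not test them. Of 14 serpin and protease-activated receptor genes, also listed after their values were seen, Serping1, F2r, F2rl2, Serpina3n and Serpinb8 were called higher and none lower, with a median of 0.65. Of 17 SR splicing factor and Clk kinase genes, also listed after their values were seen, Clk1 and Srsf2 were called lower and none higher.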
